A study of Mus musculus with 16 samples.

Results

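The genes described here encode the red-cell membrane proteins that carry blood-group antigens, together with their partner *Cd47*, and were chosen by symbol from a list of 10, namely *Rhd*, *Rhag*, *Cd47*, *Icam4*, *Kel*, *Xk*, *Gypc*, *Ermap*, *Cd44* and *Bcam*. Of the 10, 9 had a row in both count tables and passed the filter on low counts in both. They stood among 15386 genes of the RNA-seq table, of which 11979 were tested, and among 13490 genes of the m6A table, of which 11447 were tested. *Bcam*, the Lutheran carrier and a laminin receptor, had no row under that symbol in the tables used here and was not analysed.

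The study deleted *Mettl3*, the catalytic subunit of the complex that writes N6-methyladenosine (m6A) on mRNA, in the erythroid lineage of mice. RNA-seq libraries came from control CFU-E cells (n = 3) and from the CFU-E Kit-lo subset of *Mettl3*-deficient mice (n = 3), called deficient Kit-lo cells below, and m6A libraries from an anti-m6A immunoprecipitate (IP, n = 2) and from input RNA (n = 2) of control CFU-E cells. CFU-E are bone marrow progenitors one stage before the proerythroblast, sorted here as viable lineage-negative cells without CD16/32, CD41, CD34 and Sca1 that carry Kit and CD71. Mice of both sexes, aged 10 to 16 weeks, were on a C57BL/6 background. The deficient mice were *Mettl3* fl/fl *EpoR* Cre/-, in which the *EpoR-tdTomato-Cre* allele recombines in erythroid cells and in erythroblastic island macrophages. The genotype of the control mice is not given in the sources used here. The deficient cells were the subset with very low Kit and the controls had no such gate, so that the deletion and the Kit gate cannot be told apart. Whether the libraries of a group came from separate mice is not given either, and the p-values measure only the spread between these libraries.

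As background, blood-group antigens sit on proteins that do mechanical, transport and adhesive work in the red-cell membrane. The Rh complex, built from the Rh polypeptide, RHAG, CD47 and ICAM4, and the Kell complex, in which KEL is joined to XK by a disulfide bond, are held together with band 3 and the glycophorins on a spectrin skeleton. Most carriers are switched on during terminal erythroid differentiation, under factors that include GATA1, which binds GATA sequences, and KLF1, which binds CACCC boxes.

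Promoters are shown for the 4 carriers that were higher in deficient Kit-lo cells and for *Kel*, the partner of *Xk*, whose fold was near 1. Each run covers 250 bases before and 50 bases after the RefSeq start in GRCm38.p6, is written 5′ to 3′ on the strand of the gene, and has its motif matches in capitals. The motif AGATAA reads as TTATCT on the reverse strand, the motif TGATAA reads there as TTATCA, and the motif CCACCC reads there as GGGTGG. The coordinates are chr4:134864286-134864585 (plus strand) for *Rhd*, chr17:40810899-40811198 (plus) for *Rhag*, chr9:21029182-21029481 (plus) for *Icam4*, chrX:9272534-9272833 (plus) for *Xk* and chr6:41704276-41704575 (minus) for *Kel*.
Rhd: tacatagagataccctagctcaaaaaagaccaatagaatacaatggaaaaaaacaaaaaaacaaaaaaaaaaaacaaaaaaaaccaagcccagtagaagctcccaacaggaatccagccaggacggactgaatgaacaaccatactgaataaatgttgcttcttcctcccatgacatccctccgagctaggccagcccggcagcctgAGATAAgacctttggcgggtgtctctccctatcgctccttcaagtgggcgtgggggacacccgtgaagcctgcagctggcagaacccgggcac
Rhag: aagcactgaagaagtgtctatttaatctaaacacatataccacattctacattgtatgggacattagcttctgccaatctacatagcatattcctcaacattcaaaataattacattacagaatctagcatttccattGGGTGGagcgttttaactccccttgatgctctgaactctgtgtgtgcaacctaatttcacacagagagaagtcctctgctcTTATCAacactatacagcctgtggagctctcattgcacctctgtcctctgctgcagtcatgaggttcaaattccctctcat
Icam4: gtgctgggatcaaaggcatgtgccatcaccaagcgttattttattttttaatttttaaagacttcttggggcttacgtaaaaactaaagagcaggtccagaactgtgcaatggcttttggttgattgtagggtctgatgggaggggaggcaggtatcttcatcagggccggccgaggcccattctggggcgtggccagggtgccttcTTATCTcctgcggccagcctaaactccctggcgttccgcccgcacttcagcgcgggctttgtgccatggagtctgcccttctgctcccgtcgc
Xk: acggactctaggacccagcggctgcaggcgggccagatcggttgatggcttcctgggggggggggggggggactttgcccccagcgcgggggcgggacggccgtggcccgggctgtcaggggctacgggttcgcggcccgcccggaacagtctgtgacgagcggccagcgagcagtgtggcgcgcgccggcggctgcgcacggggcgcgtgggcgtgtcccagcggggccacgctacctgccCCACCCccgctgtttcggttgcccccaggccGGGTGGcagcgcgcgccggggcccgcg
Kel: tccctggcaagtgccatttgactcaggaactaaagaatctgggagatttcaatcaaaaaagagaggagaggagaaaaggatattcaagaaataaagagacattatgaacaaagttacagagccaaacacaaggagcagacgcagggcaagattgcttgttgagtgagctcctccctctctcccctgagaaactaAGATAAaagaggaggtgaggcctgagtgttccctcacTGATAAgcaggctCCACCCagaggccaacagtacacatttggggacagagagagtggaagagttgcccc

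The matches printed for these 5 genes do not overlap each other. RefSeq promoters were read for 9 carriers, *Bcam* included and *Gypc* left out. Of these, 6 held AGATAA or TGATAA (*Rhd*, *Rhag*, *Icam4*, *Kel*, *Ermap* and *Cd44*), and 5 held CCACCC (*Rhag*, *Kel*, *Xk*, *Ermap* and *Bcam*). The same letters were present in 18.6% of all 32851 promoters of this length for AGATAA or TGATAA and in 31.5% for CCACCC, and in 11.2% and 36.0% of the 11629 promoters of tested genes. *Kel* held all 3 motifs and had a fold near 1 in deficient Kit-lo cells, and *Xk*, with no AGATAA or TGATAA in its window, had the largest rise of the 9. The base composition also differed widely, from a GC content of 40.7% for *Rhag* to 78.0% for *Xk*, against a median of 52.7% over all promoters.

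RNA-seq library totals ran from 17429262 to 21329242 estimated counts and m6A totals from 19421059 to 37142742. For erythroid cells of the deficient mice, the paper reports *Mettl3* mRNA and protein as absent and the global m6A level as lower. Counts over the whole *Mettl3* gene did not fall here. The libraries labelled deficient held 117 ± 9.52 CPM (counts scaled to the library total after TMM, SD, n = 3), and control 123 ± 7.43. Such counts do not separate floxed exons from the others, so they cannot test the deletion. *Kit*, on which the cells were gated, fell from 598 ± 47.1 to 55.2 ± 12.4 CPM. For the markers, CPM is scaled to the library total alone. Erythroid markers were present throughout. In the RNA-seq comparison 6 of 10 were called higher (fold of at least 1.5 and adjusted p under 0.05, as defined below), against 12.1% of all tested genes. Among them *Klf1* ran from 883 to 987 CPM in control and from 1433 to 1529 in the deficient libraries, and the globin gene *Hba-a1* from 28.7 to 36.3 and from 842 to 1308. *Car2*, the most abundant of the 10, was lower (log2 -0.33, adjusted p = 0.0136), *Gata1* (0.07) and *Tfrc* (-0.13) overlapped between the groups, and the summed erythroid markers overlapped as well, from 11508 to 12145 CPM in control and from 11547 to 13502 in deficient libraries. Summed markers of other lineages were low. The 8 macrophage markers ran from 8.72 to 13.2 CPM in control and from 8.05 to 9.32 in deficient libraries, and the 8 granulocyte markers from 24.6 to 36.99 and from 16.5 to 23.8. The 4 of 6 megakaryocyte markers in the table ran from 12.8 to 20.4 and from 19.9 to 26.7. The 5 of 6 lymphocyte markers ran from 2.87 to 3.19 and from 2.51 to 3.0. The 5 mast cell and basophil markers ran from 33.0 to 39.9 and from 1.98 to 4.97. Most of that sum was *Gata2*, at 31.7 to 35.5 and 1.98 to 2.90 (log2 -3.93, adjusted p = 1.16e-06 in edgeR). The other markers of that list stayed at no more than 2.31 CPM. The fall of the sum is thus mainly that of *Gata2* and does not measure a share of mast cells. Of defining genes, *Adgre1* (macrophage) was at 0 in all 3 deficient libraries and at no more than 0.115 CPM in control, and *Cpa3* (mast cell) at 0 and at no more than 0.703, while *Cd68* ran from 3.27 to 5.45 CPM in control and from 3.62 to 6.10 in deficient libraries. No marker in the table was at 0 in all 6. The sums hide changes of single markers in both directions. Of 4 granulocyte markers tested, 1 was called higher and 1 lower. Of 4 megakaryocyte markers tested 2 were called higher, and of 5 macrophage markers tested 1 was called lower. Of all tested genes, 12.1% were called higher and 9.83% lower.

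Per length of the longest coding transcript, *Rhd* had the highest level of the carriers in control CFU-E, while *Ermap* was highest with the median length. Counts were divided by that length and scaled to the same total in each library (TPM), the scale of all values in this paragraph. *Rhd* stood at 1422 ± 78.3 (SD, n = 3 here and below), followed by *Ermap* at 420 ± 25.3, *Cd47* at 296 ± 15.3 and *Kel* at 259 ± 11.5. *Gypc* at 225 ± 15.5 and *Rhag* at 207 ± 13.5 came next. *Cd44* at 113 ± 8.88, *Icam4* at 61.7 ± 6.63 and *Xk* at 24.3 ± 2.35 were the lowest. *Gypc* (207 to 236) and *Rhag* (196 to 222) were the only neighbours in this order whose ranges overlapped. The order depends on the transcript used. With the median length of the coding transcripts, an alternative chosen after seeing the data, *Ermap* at 1817 stood above *Rhd* at 920 and *Cd44* at 170 above *Rhag* at 160 and *Gypc* at 153. In deficient Kit-lo cells *Rhag* at 360 ± 28.3 stood above *Kel* at 277 ± 45.1 and *Gypc* at 157 ± 7.38, and *Xk* at 50.4 ± 6.28 was the lowest. With the median length the order of the first pair turned, with *Kel* at 526 and *Rhag* at 276.

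Carriers of the Rh and Kx antigens were higher in deficient Kit-lo cells than in control CFU-E, and the Gerbich carrier *Gypc* was lower. A call required a fold of 1.5 or more and an adjusted p under 0.05 (edgeR's quasi-likelihood test, Benjamini-Hochberg adjustment over all 11979 genes). Of the 9 carriers, 5 were called, against 22% of all tested genes. *Rhd*, *Rhag*, *Icam4* and *Xk* were higher, 4 of 9 against a background of 12.1%, and *Gypc* was lower, 1 of 9 against 9.83%. By adjusted p alone 7 passed against 34.5%, with *Ermap* and *Cd47* added to the rises, which made 6 against 17.6% for rises and 1 against 16.9% for falls. The libraries of both groups did not overlap for 7 carriers, against 47.5% of all genes, with 6 higher (background 23.5%) and 1 lower (background 24%). The median log2 fold change of the 9 was 0.40, and that of all tested genes 0.01. The share of each gene's RNA in a library was measured, so fewer cells of a type and less RNA per cell cannot be told apart.

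**Figure D1:**
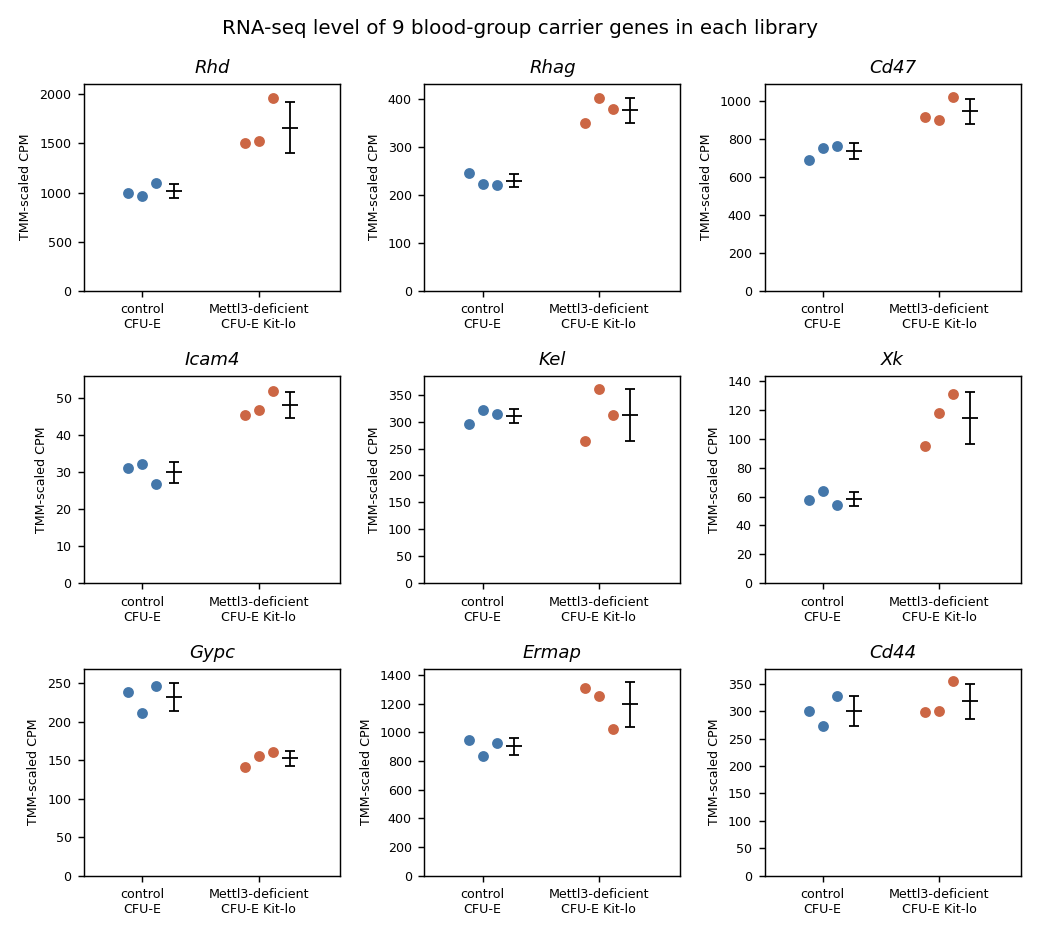
RNA-seq level (CPM after TMM scaling) of 9 carrier genes in each of the 3 control CFU-E libraries (blue) and 3 deficient Kit-lo libraries (red), with mean and SD as bars. All deficient libraries sit above all control libraries for *Rhd*, *Rhag*, *Cd47*, *Icam4*, *Xk* and *Ermap* and below them for *Gypc*, while *Kel* and *Cd44* overlap.

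The core of the Rh complex rose as a pair. *Rhd* encodes the single mouse Rh polypeptide and lies at chr4:134864536-134896172 on the plus strand of GRCm38 (GENCODE vM21), with 10 exons. Its level, here and below as CPM after TMM scaling (edgeR's correction for library composition), was 999, 960 and 1097 in control replicates 1 to 3 and 1501, 1524 and 1958 in deficient replicates 1 to 3. The lowest deficient library lay well above the highest control, and deficient replicate 3 stood apart upward. The fold was 1.63 (log2 0.71, SE 0.11, 95% interval 0.46 to 0.95, adjusted p = 0.000777 in edgeR's quasi-likelihood test). *Rhag*, on chr17:40811126-40840754 (plus strand, 10 exons), encodes the Rh-associated glycoprotein, a channel of the ammonium transporter family without which the Rh polypeptide does not reach the surface. It measured 244, 223 and 220 CPM in control and 349, 400 and 378 in deficient libraries. The groups were separate and each was tight, with a fold of 1.64 (log2 0.71, SE 0.08, adjusted p = 0.000141).

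The partners of the Rh core rose too, by different amounts. *Icam4*, the Landsteiner-Wiener carrier and an adhesion molecule of the immunoglobulin superfamily, lies at chr9:21029373-21030595 (plus strand, 2 exons). It measured 31.0, 32.1 and 26.7 CPM in control and 45.5, 46.8 and 51.9 in deficient libraries, with a fold of 1.60 (log2 0.68, SE 0.13, adjusted p = 0.00221). All 1110 of its exonic bases are overlapped by the antisense gene *Gm47079*, and since the counting is not stated to use strand, reads of both genes cannot be told apart. *Cd47*, at chr16:49800533-49915010 (plus strand, 10 exons), encodes the ligand of SIRPα that restrains phagocytosis and carries no blood group of its own. Its 688, 753 and 764 CPM in control and 913, 899 and 1021 in deficient libraries did not overlap, but the fold of 1.29 (log2 0.36, SE 0.08, adjusted p = 0.00599) stayed under 1.5.

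Of the Kell complex, *Xk* rose and *Kel* did not. *Xk* encodes the Kx carrier, a membrane protein of a lipid scramblase family, at chrX:9272756-9313250 (plus strand, 3 exons). Its level was 57.4, 63.6 and 53.9 CPM in control and 95.4, 118 and 131 in deficient libraries. The fold of 1.97 (log2 0.98, SE 0.13, 95% interval 0.69 to 1.26, adjusted p = 0.000319) was the largest of the 9, and 8.59% of tested genes had a larger one. *Kel*, the Kell zinc endopeptidase, at chr6:41686330-41704339 (minus strand, 19 exons), measured 296, 321 and 314 CPM in control. Its deficient libraries were spread to both sides of these values at 265, 361 and 312. The log2 difference of 0.01 had a 95% interval from -0.23 to 0.25 (adjusted p = 0.956), which leaves out folds of 1.5 in either direction.

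*Gypc* was the single carrier that fell. It encodes glycophorin C, the Gerbich carrier, which ties protein 4.1 and p55 to the membrane, and has 3 exons on the minus strand of chr18:32528322-32560034. Control libraries held 239, 212 and 247 CPM and deficient libraries 141, 156 and 160, with no overlap. The fold of 0.657 (log2 -0.61, SE 0.09, adjusted p = 0.000664) passed the fold threshold narrowly. Without control replicate 3 the log2 change was -0.57, without deficient replicate 1 it was -0.56 and with library size as the sole scaling -0.55, each smaller in size than the threshold of 0.585 while the adjusted p stayed under 0.05.

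The Scianna carrier *Ermap* and the Indian carrier *Cd44* moved less. *Ermap* encodes a butyrophilin-like protein of erythroid cells at chr4:119175457-119190011 (minus strand, 13 exons). Its 950, 838 and 924 CPM in control and 1312, 1254 and 1020 in deficient libraries did not overlap, deficient replicate 3 being the nearest to the controls. The fold was 1.32 (log2 0.40, SE 0.10, adjusted p = 0.0114). *Cd44*, the hyaluronan receptor used in the study to stage erythroblasts but not to gate CFU-E, lies at chr2:102811141-102901665 (minus strand, 19 exons). At 300, 273 and 327 CPM in control and 298, 300 and 355 in deficient libraries its groups overlapped. The log2 difference was 0.08 (95% interval -0.14 to 0.30, adjusted p = 0.572).

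**Figure D2:**
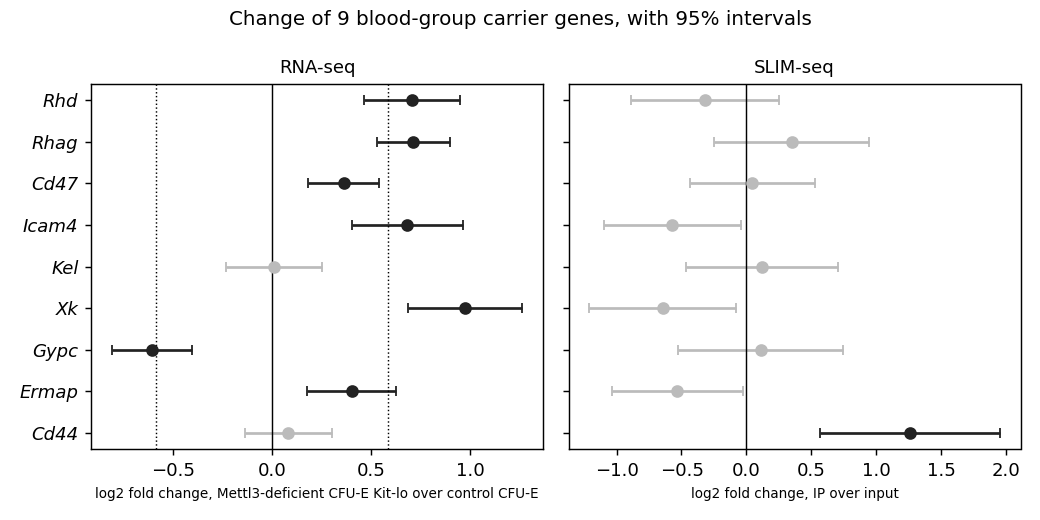
Log2 fold change of 9 carrier genes with 95% intervals, deficient Kit-lo over control CFU-E (left, n = 3 and 3) and IP over input in control CFU-E (right, n = 2 and 2). Black marks an adjusted p under 0.05 in edgeR, dotted lines mark a fold of 1.5. On the left *Xk* is highest at 0.98 and *Gypc* lowest at -0.61, and on the right *Cd44* at 1.26 is the single black point.

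Erythroid markers moved in the same comparison, 7 of 10 higher and 1 lower by adjusted p, against 17.6% and 16.9% of all tested genes. Their part in the changes of the carriers was not tested. When the test asked for a fold beyond 1.5 rather than for an estimate of 1.5 (edgeR's glmTreat), *Xk* alone remained called, with adjusted p of 0.160 for *Rhag*, 0.292 for *Rhd*, 0.432 for *Icam4* and 0.723 for *Gypc*.

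Ratios of estimated counts between 2 carriers of the same library, which no scaling between libraries can move and which were added after seeing the data, gave the balance of complex partners. *Rhag* to *Rhd* was 0.245, 0.232 and 0.201 in control and 0.233, 0.263 and 0.193 in deficient libraries. These ranges overlapped (mean 0.226 ± 0.0228 against 0.229 ± 0.0350, two-sided exact permutation p = 0.9). *Xk* to *Kel* went from 0.194, 0.198 and 0.172 to 0.360, 0.326 and 0.420, a log2 change of 0.97. *Gypc* to *Rhag* went from 0.976, 0.948 and 1.12 to 0.405, 0.389 and 0.424, a log2 change of -1.32. So the control libraries held about equal counts of *Gypc* and *Rhag*, and the deficient ones fewer of *Gypc* than of *Rhag*. *Cd47* to *Rhag* went from 2.81, 3.38 and 3.47 to 2.61, 2.24 and 2.70, a log2 change of -0.35 with the nearest libraries close together. Each of these 3 ratios separated the groups fully and had an exact permutation p of 0.1, the smallest that 3 against 3 can give (0.133 after Benjamini-Hochberg adjustment over the 4 ratios).

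**Figure D3:**
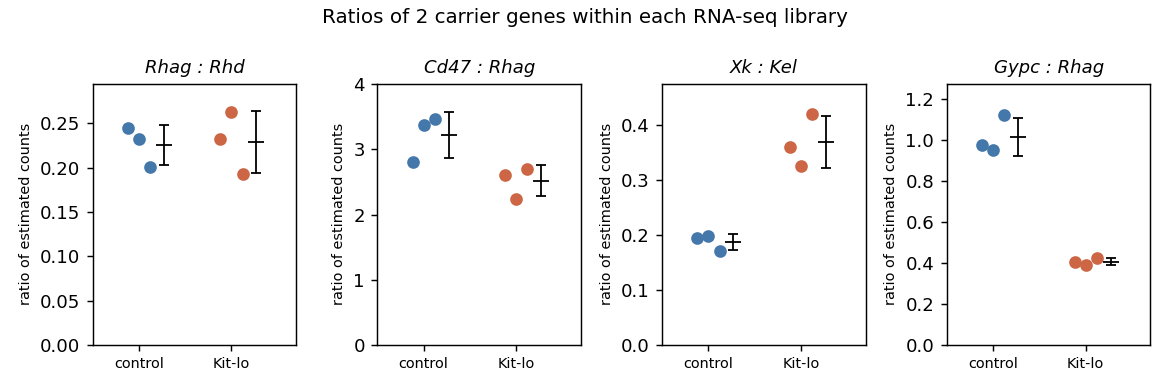
Ratio of the estimated counts of 2 carrier genes within each RNA-seq library (points), with mean and SD as bars, for control CFU-E and deficient Kit-lo libraries (n = 3 each). *Rhag* to *Rhd* overlaps at 0.226 and 0.229, while *Xk* to *Kel* is higher (0.188 to 0.369) and *Gypc* to *Rhag* lower (1.02 to 0.406) in the deficient libraries.

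The carriers can be read beside the rest of the blood-group genes. Of 35 other genes that encode blood-group systems or the enzymes that make their antigens, 26 were tested. Of these, 7 were called higher and 2 lower, against 12.1% and 9.83% of all tested genes. By adjusted p alone 11 were higher and 2 lower, against 17.6% and 16.9%. The median log2 fold change of the 26 was 0.35. The largest rises were those of *Slc4a1*, which encodes band 3 and the Diego antigens, at 7.31 (1.85 to 288 CPM), *Ache*, the Yt carrier acetylcholinesterase, at 2.14, and *Prnp*, the prion protein and KANNO carrier, at 1.83. *Cd36*, a scavenger receptor, fell by 2.25. These rises had adjusted p from 9.95e-07 to 0.000204 and the fall of *Cd36* 0.000989. The largest change of a carrier, that of *Xk*, was 0.98.

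A list of membrane partners, mostly of the skeleton and its linkers, moved mostly upward. *Ank1*, called higher, is in this list and also among the 10 erythroid markers. Of 12 such genes, 5 were called higher, against 12.1% of all tested genes. By adjusted p alone 9 were higher and 1 lower, against 17.6% and 16.9% of all tested genes (median log2 fold change of the 12, 0.40). The largest rises were *Tmod1*, the actin-capping tropomodulin, and *Dmtn*, the actin-bundling dematin, both at 3.77, and *Sptb*, β-spectrin, at 1.60 (adjusted p of 3.72e-05, 1.15e-08 and 8.75e-06). Among the direct partners of *Gypc*, which fell, *Epb41* (protein 4.1) changed by 0.51 (adjusted p = 0.000972) and *Mpp1* (p55) by 0.29 (adjusted p = 0.0307), both upward and both under a fold of 1.5. Family relatives of the carriers did not share a direction. Of 22 relatives 8 were tested, with a median of -0.07. *Icam5* (1.57, adjusted p = 0.0498) and *Ece1* (1.0), an endopeptidase related to KEL, were called higher, and *Icam2* lower at -1.23 (adjusted p = 0.00098). The level of *Icam5* was low, at 1.26 ± 1.09 CPM in control and 3.72 ± 0.183 in deficient libraries. With upper-quartile scaling 2 relatives were called in place of 3. Of all tested genes, 12.1% were called higher and 9.83% lower.

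**Figure D4:**
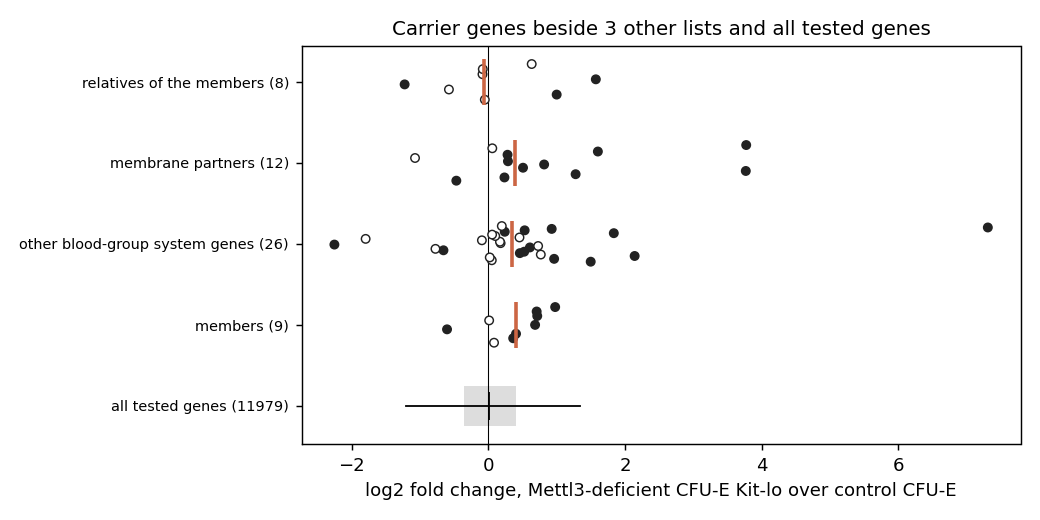
Log2 fold change of each tested gene, deficient Kit-lo over control CFU-E (n = 3 each), for the carrier genes (members) and 3 other lists, with filled points at an adjusted p under 0.05 and the list median in red. For all 11979 tested genes the bar spans -0.36 to 0.41 (middle 50% of genes) and the line -1.20 to 1.34 (5th to 95th percentile); the carriers run from -0.61 to 0.98.

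In control CFU-E, *Cd44* was the single carrier called higher in the anti-m6A IP than in input. A missing call does not show that the other carriers lack the mark. Each value below compares IP with input for the whole gene, since the libraries were primed from the poly(A) tail and give no position of a modified base. A gene was called with an adjusted p under 0.05, as higher where IP exceeded input (the rule of the study for a modified transcript) and as lower where it was below. Of the 9 carriers 1 was called, against 15.8% of 11447 tested genes, with 1 higher (background 7.9%) and 0 lower (background 7.86%). IP and input libraries did not overlap for 4 carriers, against 60.9% of genes, with 1 higher (background 32.2%) and 3 lower (background 28.7%). The median log2 ratio was 0.05 for the carriers and 0.06 for all tested genes. Of all calls 50.1% were higher, and 65.8% with upper-quartile scaling or 60.6% with library size alone. Libraries of *Mettl3*-deficient cells were not part of this comparison.

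*Cd44* measured 35.1 and 72.6 CPM (TMM-scaled) in input replicates 1 and 2 and 131 and 127 in IP replicates 1 and 2. Both IP libraries lay above both inputs, while the inputs differed from each other by more than the IP libraries did. The fold was 2.40 (log2 1.26, SE 0.31, 95% interval 0.57 to 1.95, adjusted p = 0.0225 in edgeR's quasi-likelihood test), and 6.77% of tested genes had a larger one. Without input replicate 1, the lower of both, it was 0.81 on the log2 scale with an adjusted p of 0.200. The same omission left 591 genes called of all tested in place of 1804. Without IP replicate 1 there were 1173, and the genes called higher, 904 with all libraries, numbered 571 without input replicate 2, 433 without IP replicate 1 and 1358 without IP replicate 2.

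GGACT is among the commonest sequences around a methylated adenosine, and its occurrences in *Cd44* are shown because this carrier was called higher in IP. The longest coding transcript in GRCm38 (GENCODE vM21, 5614 bases, minus strand of chromosome 2) holds 9, of which 5 lie in the coding part and 4 in the 3′ untranslated part. Each run has GGACT in capitals with 10 bases on either side and is named by the distance of its first G from the last coding base, negative upstream.
Cd44 at -2309: cacagcttggGGACTttgcctcttg
Cd44 at -2191: agtatctcccGGACTgaggcagctg
Cd44 at -1254: aagacaaccaGGACTggacccagtg
Cd44 at -523: atggaaaatgGGACTctcttcccag
Cd44 at -402: actcatccaaGGACTccagggggag
Cd44 at 1121: attgtggtggGGACTtgtggcgcct
Cd44 at 1316: aaaagccacaGGACTgcccaccact
Cd44 at 1686: ggagatacacGGACTttctggcaca
Cd44 at 1783: tggctttcatGGACTttctctttct

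With 1.60 GGACT per 1000 bases *Cd44* was the densest of the 10 carriers, and 21.2% of tested genes were denser. *Ermap* followed with 6 (1.32 per 1000 bases), *Bcam* with 3 (1.24), *Icam4* with 1 in its short transcript (0.973) and *Cd47* with 5 (0.952). *Kel* had 2 (0.791), *Xk* 4 (0.788), and *Rhd* (0.661), *Gypc* (0.459) and *Rhag* (0.428) had 1 each. The density did not separate the called genes in general, with medians of 0.924 in 901 genes higher in IP, 1.06 in 897 genes lower in IP and 1.03 in all 11419 genes with a transcript. These counts and ranks are those of the longest coding transcript of each gene. *Cd44* has 8 coding transcripts with a median length of 2414.5 bases, and which of them these cells make was not determined. These letters are a description of the transcript and not a mapped site.

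Among the other carriers, 3 had both IP libraries below both inputs without passing the adjusted threshold when replicate number was left out of the fit. *Xk* measured 19.8 and 19.6 CPM in input and 13.6 and 11.5 in IP (log2 -0.65, 95% interval -1.21 to -0.08, adjusted p = 0.111). *Icam4* measured 129 and 156 in input and 79.9 and 112 in IP (log2 -0.57, adjusted p = 0.132). *Ermap*, with 345 and 470 in input and 277 and 287 in IP, gave -0.53 (adjusted p = 0.140). Before adjustment the p-values of edgeR were 0.0291 for *Xk*, 0.0380 for *Icam4* and 0.0421 for *Ermap*. DESeq2 also called none of the 9 carriers lower. With replicate number as a block, edgeR called these 3 lower (adjusted p of 0.0347, 0.0107 and 0.0232 in the same order). That block also took the calls over all genes from 1804 to 3538, and the labels do not state that same-numbered libraries share RNA.

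The Rh core, *Kel*, *Gypc* and *Cd47* had overlapping IP and input libraries. *Rhd* measured 1304 and 1692 CPM in input and 1014 and 1386 in IP (log2 -0.32, 95% interval -0.89 to 0.25). *Rhag*, at 109 and 73.5 in input and 138 and 94.2 in IP, gave 0.35 (interval -0.25 to 0.95). In input and in IP alike, replicate 1 was the lower for *Rhd* and the higher for *Rhag*. *Kel* at 81.5 and 53.3 against 82.9 and 63.7 gave 0.12 (interval -0.46 to 0.70), and *Gypc* at 139 and 93.6 against 156 and 95.3 gave 0.11 (interval -0.52 to 0.74). *Cd47*, at 576 and 512 against 598 and 526, gave 0.05 (interval -0.44 to 0.53). The interval of *Cd47*, the narrowest of these 5, still held a fold of 1.44.

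**Figure D5:**
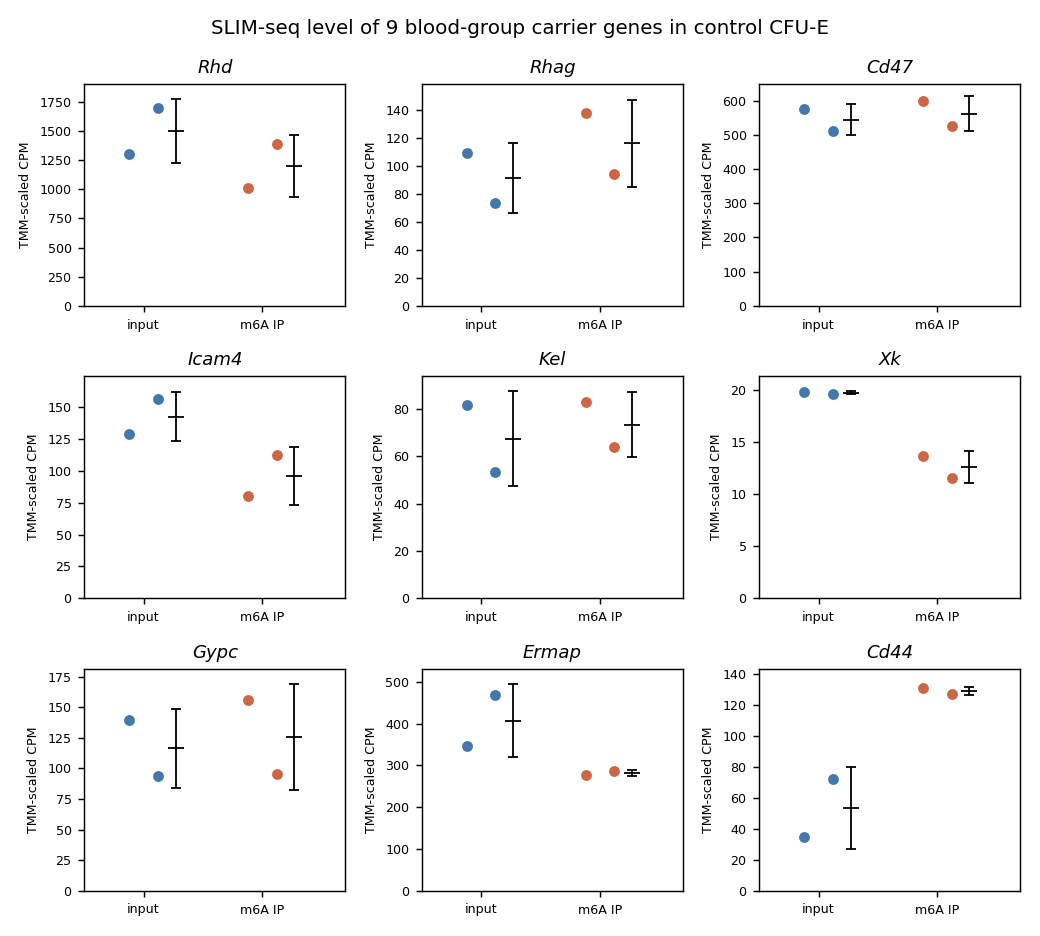
Level (CPM after TMM scaling) of 9 carrier genes in the 2 input and 2 IP libraries of control CFU-E, with mean and SD as bars. *Cd44* is higher in IP (131 and 127 against 35.1 and 72.6). *Xk*, *Icam4* and *Ermap* lie lower in IP without passing the adjusted threshold when replicate number is left out of the fit.

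Both comparisons can be set side by side for the called carriers. *Cd44* had a log2 difference of 1.26 for IP over input and 0.08 for deficient Kit-lo over control CFU-E, *Xk* -0.65 and 0.98, *Rhag* 0.35 and 0.71, *Rhd* -0.32 and 0.71, *Icam4* -0.57 and 0.68, and *Gypc* 0.11 and -0.61. Of the other lists, 0 of the 26 tested other blood-group genes were called in IP over input by edgeR, against 15.8% of all tested genes. DESeq2 called 0 of the 26 as well (median -0.02 in edgeR), and at an unadjusted p under 0.05 edgeR gave 1 higher and 3 lower. Without IP replicate 1 edgeR called 1 of the 26, and without IP replicate 2 it called 2. Of the 12 membrane partners 2 were called higher, *Epb41* (1.12, adjusted p = 0.0205) among them. *Tmod1* (-2.44, adjusted p = 0.00219) was called lower. Of 8 relatives *Ece1* (1.60) was called higher (adjusted p = 0.00355). Of all tested genes, 7.9% were called higher and 7.86% lower.

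Control CFU-E were measured in both tables, by Smart-seq2 RNA-seq and as the input of the m6A libraries, and each table was normalized on its own. Both kinds of library were primed with oligo-dT. The m6A libraries were in addition amplified from the 3′ primer after fragmentation. *Cd44* stood at 300 CPM in RNA-seq and 53.8 in input, *Kel* at 310 and 67.4 and *Xk* at 58.3 and 19.7. *Icam4* went the other way, with 30.0 and 142, as did *Rhd* with 1019 and 1498. No test was made between the tables.

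Over all 10 libraries, centred within each table, the gene most like each carrier among 10773 genes tested in both tables was found by Pearson's r of log2 CPM, as a description over libraries that share their groups. For the Rh genes it was *Cdipt* for *Rhd* (r = 0.978), *Dclre1b* for *Rhag* (0.985), *Ethe1* for *Icam4* (0.984) and *Fam161b* for *Cd47* (0.980). For the Kell genes it was *Traf4* for *Xk* (0.981) and *Tti2* for *Kel* (0.897), the weakest of the 9. *Ap1b1* was nearest to *Gypc* (0.982), *Rrn3* to *Cd44* (0.984) and *Sirt3* to *Ermap* (0.957). No carrier had another carrier as its nearest gene, which with 10773 candidates gives no measure of whether the carriers varied together.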

How the data were processed

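RNA-seq libraries (Smart-seq2) of control CFU-E were compared with those of deficient Kit-lo cells, and SLIM-seq m6A libraries of control CFU-E, IP with input. Groups follow the sample labels. Of 16 samples 10 had values, and the 6 proerythroblast samples were not analysed here. The authors filtered reads with fastp 0.23.4, quantified transcripts with Kallisto 0.48.0 on mm10 (the submitters' notes also name GRCm39), merged them with tximport and deposited estimated counts per gene without normalization. These were whole numbers in the files. Whether the molecular identifiers of the SLIM-seq primer were counted, and on which strand, is not given in the sources used here, so PCR copies are not excluded from the counts.

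Both tables were fitted whole in R 4.3.3 with edgeR 4.0.16 (TMM, filterByExpr, glmQLFit, glmQLFTest, no block), with Benjamini-Hochberg adjustment over all tested genes. The standard error is the log2 fold change divided by the root of F. The thresholds were the study's, without its filter on TPM. Alternatives were DESeq2 1.42.0, other scalings, no filter on low counts, other fold rules, a replicate block and leaving out each library. The fits were tested on simulated data first. The carriers, gene lists and tests were chosen with earlier results of these data known. Named genes were the carriers, *Mettl3*, *Kit*, per list up to 3 called rises and 3 called falls with a mean log2 CPM of 1 or more, and the gene most like each carrier. Some genes that this rule would name are not reported here. *Klf1*, *Hba-a1*, *Adgre1*, *Cpa3*, *Gata2*, *Car2*, *Gata1*, *Tfrc*, *Cd68*, *Mpp1*, *Ank1* and the RNA-seq value of *Epb41* were named after their values were seen. No 2 libraries held identical values (0 pairs). Variation between replicates (edgeR's coefficient) came to 19.1% for RNA-seq and 21.9% for SLIM-seq. Positions come from GENCODE vM21 (GRCm38) and promoters from RefSeq (GRCm38.p6), taken by symbol for 9 of the 10 carriers. Chromosome 18, where *Gypc* lies, was left out of the carrier promoters, so the promoter motif counts do not cover *Gypc*. Plots used matplotlib 3.10.9 under Python 3.11.15.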

Additional observations from a re-analysis of the deposited data

How the results depend on the processing

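For deficient Kit-lo over control CFU-E, 14 alternatives were run per result and none reversed a called carrier. *Xk* kept its call in all 14. With glmTreat against a fold of 1.5, 1 carrier was called (1 higher, 0 lower), and the log2 changes of *Rhd* (0.71), *Rhag* (0.71), *Icam4* (0.68) and *Gypc* (-0.61) no longer passed, while 1147 of all genes did (665 higher, 482 lower). With no fold threshold *Ermap* (0.40) and *Cd47* (0.36) passed and 4128 of all genes did (2024 lower). With library size as the sole scaling *Gypc* (-0.55) missed the fold threshold and 0 carriers were lower. Leaving out each library in turn gave 0 to 1 carriers lower, with *Gypc* between -0.68 and -0.56. For IP over input, 11 alternatives were run. Without 1 library in turn, 0 to 1 carriers were called (0 to 1 higher), *Cd44* ran from 0.81 to 1.87, and 591 to 2326 of all genes were called (164 to 1358 higher, 427 to 968 lower). Upper-quartile scaling gave 1451 genes higher, and it moved the median log2 ratio of all genes from 0.06 to 0.18, as library size alone did to 0.21. Replicate numbers do not pair the RNA-seq libraries (correlations of same-numbered deviations 0.03, -0.02 and -0.07), and in the 2 m6A pairs (0.205) the labels state no shared RNA. With the replicate block 4 carriers were called in IP over input, 3 of them lower (*Xk* -0.65, adjusted p = 0.0347; *Ermap* -0.51, 0.0232; *Icam4* -0.58, 0.0107, all by edgeR), with 5 of the 26 other blood-group genes and 3538 of all genes (1783 higher, 1755 lower). The block changed no call of a carrier in the RNA-seq. The cause of these shifts was not tested.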

Other observations

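In the m6A libraries the within-library ratios could not reach a p under 0.333 with 2 against 2. *Xk* to *Kel* was 0.243 and 0.368 in input and 0.165 and 0.181 in IP, and *Gypc* to *Rhag* was 1.28 and 1.27 in input and 1.13 and 1.01 in IP, each with an exact permutation p of 0.333. *Rhag* to *Rhd* overlapped, at 0.0834 and 0.0434 in input and 0.136 and 0.0679 in IP.

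The summed erythroid markers were lower in IP (6686 to 6990 CPM without TMM scaling) than in input (9390 to 10684), and *Car2* held most of that sum. Of the 10 markers 2 were called lower, against 7.86% of all tested genes. The 9 carriers showed no common direction. Their median log2 ratio was 0.05, against 0.06 for all tested genes, and of the 5 carriers above 0 only *Cd44* passed the adjusted threshold.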
